A study of Mus musculus with 12 samples.

Results

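Day-5 spheres made from cultured astrocytes (A-iSCs) were compared with cell suspensions dissociated from the hippocampus of newborn mice (P0-NPCs), with 3 samples on each side. Expression was measured by RNA sequencing and deposited in FPKM, the number of fragments per length of gene, divided by a size factor of each sample. Of the 55862 genes in the table, the 15170 with a mean of at least 1 FPKM in either group were compared, and 6 of the 12 samples of the series entered the test. The A-iSCs came from astrocytes of the cerebral cortex of C57BL/6 pups at postnatal day 1 to 2. Those cells were first grown as a monolayer in medium with serum (ASTs) and were then kept for 5 days as floating spheres on 0.5% agarose. The P0-NPCs came from hippocampi of C57BL/6J mice at postnatal day 0, which were dissociated with trypsin and collected by centrifugation, and the study used them as a positive control for neural progenitors. No sorting and no sphere culture is stated for them, so a P0-NPC sample is the RNA of a mixed suspension. No genetic change and no added agent is stated for either group. The other samples of the series are 3 of ASTs and 3 of P56-NPCs, a suspension from the subependymal zone of adult mice, and they are given below only as levels.

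Astrocytes are glial cells that take up glutamate, buffer potassium and supply neurons, and after injury they become reactive, with raised intermediate filaments, complement and secreted proteins. Neural progenitors share the factor Sox2 and the filament nestin with immature and cultured astrocytes, and they give rise to intermediate progenitors with Eomes, which form glutamatergic neurons of the hippocampus under factors of the Neurod family and Tbr1. At birth the hippocampus already holds many young neurons, along with Cajal-Retzius cells, vessels, blood and choroid plexus close by, while microglia, the macrophages of the brain, are still few.

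A-iSCs expressed 4773 genes at a higher level than P0-NPCs and 5103 at a lower level in limma's moderated test at an adjusted p under 0.05. The called genes were 65.1% of the 15170 tested, with 31.5% higher and 33.6% lower, so a gene group stands apart from the background only where its share is well above these. Differences are given as log2 fold changes, A-iSCs minus P0-NPCs, of log2(FPKM + 1), a scale on which changes of low genes are understated. Their median over all genes tested was -0.02. Beyond 1 on this scale 2142 genes were higher and 2388 lower, and beyond 4 there were 71 and 50. Of the genes tested, 1450 passed the filter through the A-iSCs alone and 1963 through the P0-NPCs alone, which fixed the direction of their difference, and 1212 and 1760 of these were called. Among the 11757 that passed in both groups, 58.7% were called. The samples of the groups did not overlap for 10727 of the genes tested (70.7%), so non-overlap of a single gene is the usual case here. Genes higher beyond 2 took 16.1% to 18.3% of the fragments of an A-iSC sample and 1.7% to 1.8% of a P0-NPC sample. Genes lower beyond -2 took 1.0% to 1.2% and 10.5% to 10.8%.

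**Figure D1:**
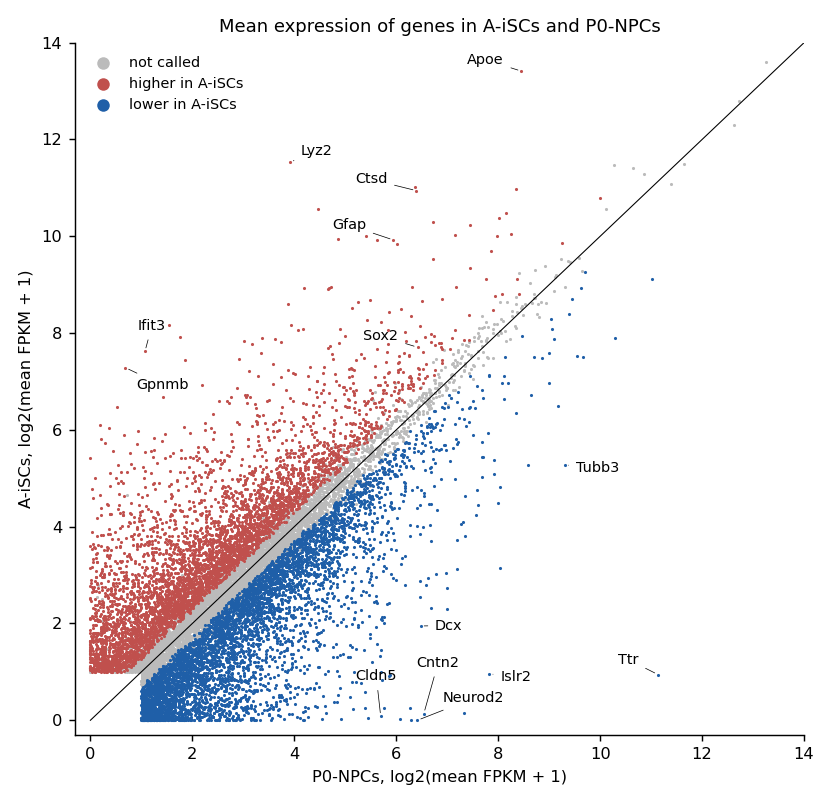
Mean expression of the 15170 genes tested, as log2(mean FPKM + 1), in the 3 P0-NPC samples (x axis) and the 3 A-iSC samples (y axis), with genes called higher in A-iSCs in red, lower in blue and not called in grey. Apoe, Lyz2 and Ctsd lie far above the line of equal expression, and Ttr, Tubb3 and Neurod2 far below it.

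Between 18288177 and 24452419 fragments were counted per sample, so that in a gene 1 kilobase long a count of 3 equals 0.103 to 0.149 FPKM, a floor that covers counting error only. The study's methods speak of independent experiments for its tests in general, but no label says that these samples of a group came from separate cultures or animals, so the p-values measure the spread between these samples, which may be technical. A-iSC replicate 3 stood apart: over the genes tested it differed from the other A-iSCs by a root mean square of 0.502 and 0.458 on the log2 scale, against 0.244 between those and 0.240 to 0.275 among the P0-NPCs. Its astrocyte genes were higher (a median of 0.67 over the list described below) and its contractile and metallothionein genes lower (-0.81 and -0.46). Without it, 5636 genes were called higher and 5870 lower. The P0-NPC samples differed in their choroid plexus and blood genes, as given below.

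Genes of young neurons were lower in A-iSCs without exception among those listed. All 15 immature neuron genes were lower, with a median of -3.59. Of these, 3 passed the filter through the P0-NPCs alone, and the other 12 were lower too. Doublecortin (Dcx), a microtubule protein of migrating neurons on chrX:143855842-143933311, was at 2.87, 2.67 and 3.04 FPKM in A-iSCs and at 80.4, 90.5 and 93.2 FPKM in P0-NPCs. The neuronal beta-tubulin Tubb3 was at 46.3, 40 and 27.3 FPKM in A-iSCs and at 608, 566 and 728 FPKM in P0-NPCs. The groups did not overlap, and the mean FPKM was 30.8-fold (Dcx) and 16.8-fold (Tubb3) lower in A-iSCs, with adjusted p = 2.79e-07 and 2.72e-06 in limma. The nuclear splicing factor Rbfox3 (NeuN) was lower by 122-fold, from 17.1, 17.4 and 18.5 FPKM in P0-NPCs to 0.171, 0.130 and 0.135 in A-iSCs. Sox11, a factor of newborn neurons, differed by -3.59, the axonal growth protein Gap43 by -2.63 and the microtubule protein Map2 by -2.01. Per length, the level of Tubb3 exceeded that of Nes in every P0-NPC sample, while that of Nes exceeded Tubb3 in every A-iSC sample. As these are bulk samples, fewer cells of a type and less RNA per cell cannot be told apart, here and for every group of genes below.

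Hippocampal glutamatergic genes were lower in A-iSCs with 1 exception. Of 12 listed genes 11 were lower, with a median of -2.48, and 9 of the 12 passed the filter through the P0-NPCs alone. Of the other 3 genes 2 were lower (median -1.54). Neurod2, a bHLH factor of excitatory neurons on chr11:98325415-98329648, had no fragment in any A-iSC sample and was at 82.1, 74.2 and 96.8 FPKM in P0-NPCs, which is at least 2056-fold lower against a floor of 3 fragments per library. Neurod6 and Neurod1 were at 67.9 to 89.7 and 60.2 to 73.8 FPKM in P0-NPCs and at 0 to 0.0545 FPKM in A-iSCs. Tbr1, a T-box factor of early-born neurons, was at 17.1, 16.5 and 21.3 FPKM in P0-NPCs and at 0.0904, 0.0613 and 0.0136 in A-iSCs. Prox1, which marks dentate granule cells, was lower by 2.34 on the log2 scale, and Bcl11b by 2.63. Zbtb20, a factor of hippocampal pyramidal cells that astrocytes also express, was not called: it was at 9.13, 8.99 and 18.4 FPKM in A-iSCs and at 14.6, 15.3 and 12.1 in P0-NPCs. The highest of these values was A-iSC replicate 3, and without that sample Zbtb20 was called lower.

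Among 12 genes of inhibitory and Cajal-Retzius neurons, 10 were lower, and Dlx2 and Dlx5 were not called (median of the 12, -1.87). Of the 12, 7 passed the filter through the P0-NPCs alone, and 3 of the other 5 were lower. The calcium-binding protein calretinin (Calb2) differed most, at 0.199, 0.217 and 0.171 FPKM in A-iSCs and at 73.3, 76.8 and 77.7 FPKM in P0-NPCs. Reelin (Reln), secreted by Cajal-Retzius cells, was at 0.259, 0.342 and 0.710 FPKM in A-iSCs and at 29.4, 27.8 and 26.4 in P0-NPCs. In A-iSCs Calb2 had 7 to 9 fragments per sample and Reln, a longer gene, 124 to 452, so both were above the floor of 3. Lhx6 and somatostatin (Sst), of medial ganglionic eminence interneurons, differed by -3.77 and -4.47. The GABA-synthesising enzymes Gad1 and Gad2 differed less, by -1.17 and -1.87, and Gad1 kept 2.42, 1.66 and 1.05 FPKM in A-iSCs against 4.02, 6.49 and 4.67.

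Synapse genes were lower in 15 of 15 cases (median -2.04), with 5 of them passing the filter through the P0-NPCs alone. The vesicle fusion protein Snap25 was at 0.577, 0.328 and 0.269 FPKM in A-iSCs and at 13.6, 16 and 14.9 in P0-NPCs. The AMPA receptor subunit Gria1 was at 2.24, 2.26 and 4.04 FPKM against 30, 34.6 and 28.9. Vamp2 and the scaffold Dlg4 differed less, by -1.62 and -1.30, and the vesicle protein Vamp2 was at 17.7, 24.4 and 24.0 FPKM in A-iSCs against 64.0, 69.1 and 74.0. Of 18 axon guidance genes 15 were lower (median -1.44) and 2, Robo2 and Nrcam, were not called. Of the 18, 8 passed the filter through the P0-NPCs alone, and 7 of the other 10 were lower. The differences were largest for Cntn2 (-6.40), L1cam (-4.17) and the netrin receptor Dcc (-3.37), which are among those 8. The netrin Ntn1 was higher, by 0.99, at 7.54, 7.91 and 12.6 FPKM in A-iSCs and 4.42, 3.95 and 3.97 in P0-NPCs. Neither group of values overlapped the other for Ntn1 (adjusted p = 0.00205 in limma).

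The beta-tubulins parted within the family. Tubb2b, Tubb3, Tubb4a, Tubb5 and Tubb2a were lower, whereas Tubb6 and Tubb4b were higher. Tubb2b, abundant in migrating neurons and progenitors, was at 233, 242 and 242 FPKM in A-iSCs and at 1246, 1178 and 1326 in P0-NPCs. Tubb6, an isotype of non-neuronal and stressed cells, was at 36.3, 29.7 and 25.8 FPKM against 5.83, 5.67 and 6.15. These genes share long near-identical coding stretches, so the split of reads between them is uncertain.

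**Figure D2:**
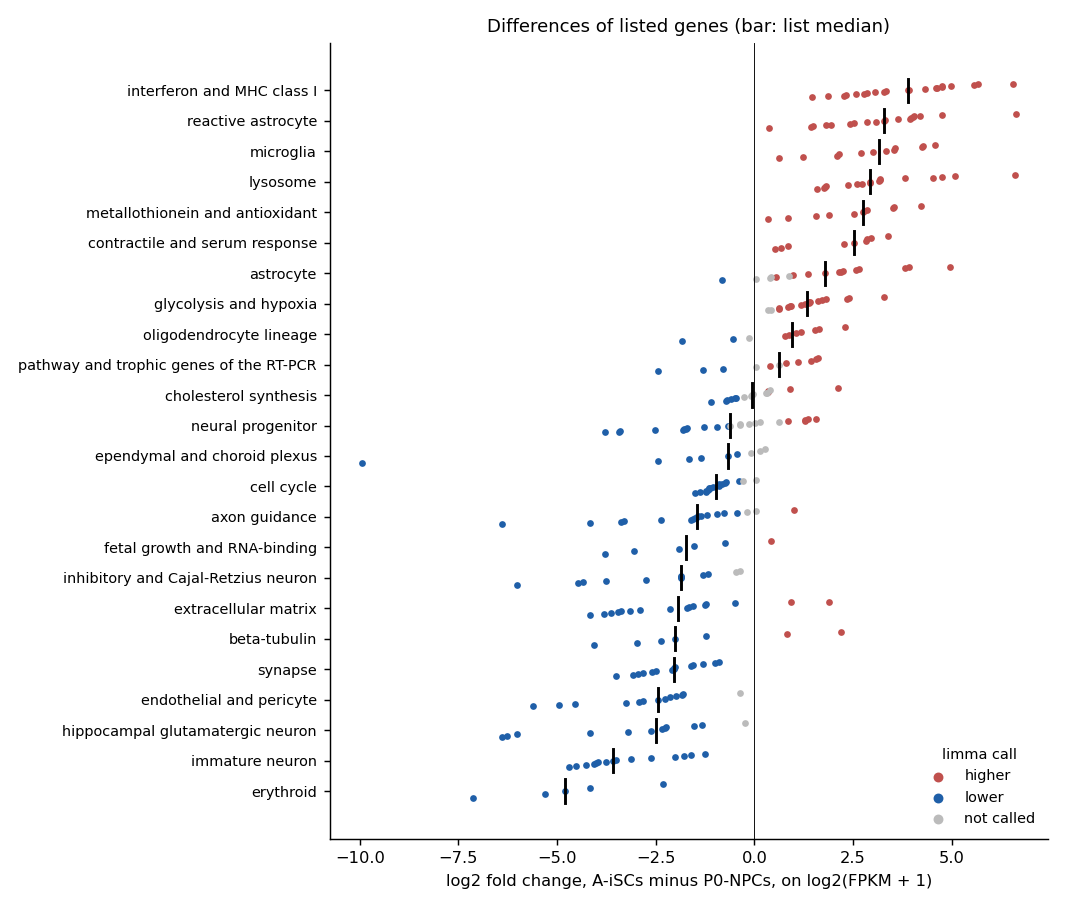
log2 fold changes (A-iSCs minus P0-NPCs, on log2(FPKM + 1)) of the tested members of each gene list with at least 5 tested genes, 1 point per gene, coloured by limma's call, with the list median as a black bar. Interferon, reactive astrocyte, microglia and lysosome genes lie wholly to the right, and immature neuron, synapse and erythroid genes wholly to the left.

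Neural progenitor genes did not move together. Of 23 tested, 5 were higher in A-iSCs, 11 lower and 7 not called, with a median of -0.62. Of these 23, 2 passed the filter through the P0-NPCs alone. Sox2, which maintains neural progenitors and lies at chr3:34650405-34652461, was at 210, 234 and 180 FPKM in A-iSCs and at 84.8, 84.4 and 84.3 in P0-NPCs, a mean of 2.47-fold higher (adjusted p = 9.20e-05 in limma). The filament gene Nes was at 72.2, 73.7 and 64.4 FPKM against 27.9, 26.7 and 26.1. Every A-iSC sample was above every P0-NPC sample for both. Olig2, a factor of glial progenitors, was higher by 1.57, and Rfx4 and Pou3f2 by 1.29 and 0.84. Sox2 was also at 135 FPKM (mean of 3) in the monolayer ASTs, and Nes at 196.

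The members that were lower included those of intermediate progenitors and of the dorsal telencephalon. Eomes, which marks intermediate progenitors, was at 0.251, 0.496 and 0.386 FPKM in A-iSCs and at 14.4, 10.3 and 17.6 in P0-NPCs. Insm1, a zinc-finger factor of the same cells, was at 3.75, 3.81 and 5.40 FPKM against 54.7, 44.4 and 67.1. Emx1, a homeobox factor of the cortex and hippocampus, differed by -3.78, Lhx2 by -2.53 and Emx2 by -1.70. The Notch target Hes5 was lower by 0.94 on the log2 scale.

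Pax6, Fabp7, Hopx, Notch1, Hes1, Sox1 and Ncan were the 7 that were not called, which does not show them to be equal. Notch1 was called lower under 5 of the alternatives, by 0.92 on the log2 scale without A-iSC replicate 3 (adjusted p = 6.15e-05 in limma). The 95% interval of the difference ran from -0.42 to 0.13 for Pax6, and its values were 4.06, 3.64 and 4.70 FPKM against 4.84, 4.28 and 4.81. The lipid-binding protein Fabp7 of radial glia was at 528, 424 and 533 FPKM in A-iSCs and at 589, 704 and 620 in P0-NPCs. Without A-iSC replicate 3 the list gave 6 higher and 14 lower genes, and its median was -0.74.

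Of 9 listed genes of pluripotent and other stem cells, 6 were under the filter in both groups. Pou5f1 (Oct4) had no fragment in any A-iSC sample and was at 0, 0.0153 and 0.0323 FPKM in P0-NPCs. Nanog was at 0.0885, 0.113 and 0.15 FPKM in A-iSCs and at 0.136, 0.0460 and 0.113 in P0-NPCs. The others of the 6 were Lin28a, Sall4, Zfp42 and Pax3. Klf4 and Myc were not called. Without A-iSC replicate 3 the difference of Klf4 turned to 0.14 and Myc was called higher, by 0.51 (adjusted p = 0.0127 in limma). Sox10, a factor of oligodendrocyte precursors and neural crest, was higher, at 12.3, 12.4 and 8.83 FPKM against 2.38, 3.93 and 2.51. Of 6 tested genes of fetal growth 5 were lower, 3 of which passed the filter through the P0-NPCs alone, and Igf2bp2 was higher. The imprinted RNA H19 was at 2.18, 2.39 and 4.56 FPKM in A-iSCs and at 59.9, 41.7 and 58.6 in P0-NPCs, and Mex3a differed by -3.05.

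Cell cycle genes were lower in 16 of 18 cases, with a narrow spread of differences (-1.50 to 0.05, median -0.97), and all 18 passed the filter in both groups. The proliferation marker Mki67 was at 3.91, 3.69 and 4.10 FPKM in A-iSCs and at 11.1, 8.19 and 11.6 in P0-NPCs. Cyclin A2 (Ccna2) was at 2.66, 2.54 and 3.35 FPKM against 11.1, 8.61 and 9.94, and the replication helicase subunit Mcm5 at 3.18, 3.55 and 3.99 against 11.3, 10.3 and 10.7. These 3 genes did not overlap between the groups. Pcna, the sliding clamp of DNA polymerase, was not called, at 58.5, 55.8 and 51.8 FPKM against 53.9, 51.3 and 55.3, and the thymidylate synthase Tyms was not called either. The summed FPKM of the list was 135 to 138 in A-iSCs, 215 to 250 in P0-NPCs and 524 to 552 in the ASTs that the spheres were made from.

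**Figure D3:**
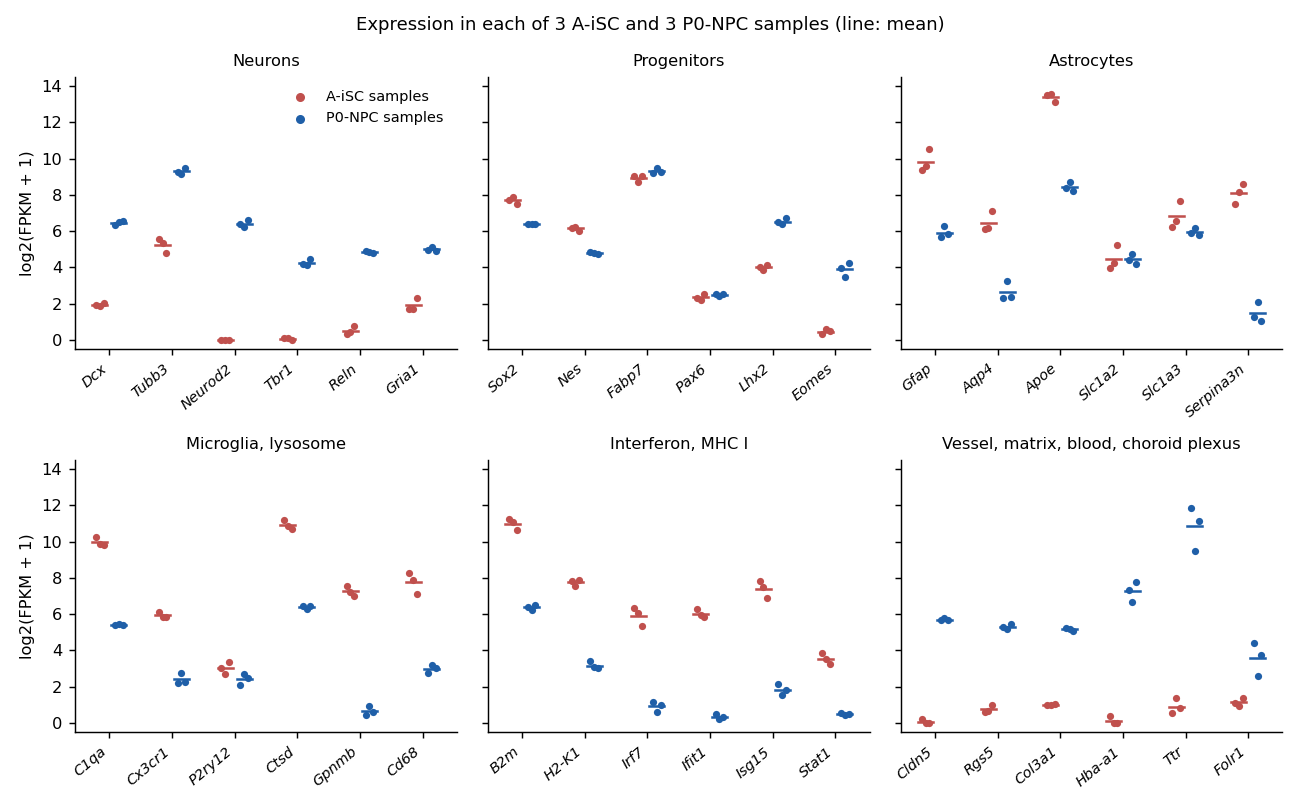
Expression as log2(FPKM + 1) of 36 listed genes in each of the 3 A-iSC samples (red) and 3 P0-NPC samples (blue), with a short line at each mean. Dcx, Neurod2 and Cldn5 are near 0 or far lower in every red sample, C1qa, Ctsd and B2m far higher, and Pax6 and Slc1a2 overlap.

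Astrocyte genes were higher in A-iSCs in 12 of 17 cases (median 1.79), 1 was lower and 4 were not called. The lower one, Gjb6, passed the filter through the P0-NPCs alone, and of the other 16 genes 12 were higher and none lower (median 1.96). The filament Gfap, at chr11:102887336-102900912, was at 658, 769 and 1483 FPKM in A-iSCs and at 49.3, 77.0 and 55.6 in P0-NPCs. The water channel Aqp4 was at 69.3, 71.1 and 137 FPKM against 4, 8.69 and 4.10. For both, A-iSC replicate 3 was the highest sphere sample and the groups did not overlap. The lipid carrier Apoe was the most abundant listed gene, at 11922, 11939 and 8835 FPKM in A-iSCs and at 333, 426 and 291 in P0-NPCs, and it was 31.1-fold higher (adjusted p = 1.65e-06 in limma). Unlike Gfap and Aqp4, Apoe was lowest in A-iSC replicate 3, and which cells carried it was not tested. Apoe made up most of the summed FPKM of the list in A-iSCs, 12822 to 14624. Aldh1l1, a folate enzyme used as an astrocyte marker, differed by 2.24 with a standard error of 0.12, and S100b by 2.57.

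Some transporter and connexin genes of mature astrocytes were not among these. The glutamate transporter Slc1a2 was at 14.7, 17.8 and 36.6 FPKM in A-iSCs and at 20.4, 25.3 and 17.4 in P0-NPCs, and its 95% interval ran from -0.70 to 0.76, with a difference of -0.34 without A-iSC replicate 3. The other glutamate transporter, Slc1a3, was at 74.8, 93.2 and 205 FPKM against 57.7, 72.4 and 55.1 (difference 0.87, adjusted p = 0.0567 in limma). Slc1a3 was called higher under 5 of the alternatives, and its difference was 0.44 without A-iSC replicate 3 and 1.16 when replicate 1 was left out. The connexin Gjb6 was lower, at 0.501, 1.20 and 1.27 FPKM against 2.29, 3.24 and 2.01. For comparison, in the adult P56-NPC suspension the mean was 519 FPKM for Slc1a2 and 114 for Gjb6. Without A-iSC replicate 3 the list gave 13 higher and 1 lower, with a median of 1.48.

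Reactive astrocyte genes were all higher: 19 of 19 tested, with a median of 3.27, of which 6 passed the filter through the A-iSCs alone. The protease inhibitor Serpina3n was at 179, 283 and 393 FPKM in A-iSCs and at 1.4, 3.25 and 1.06 in P0-NPCs. The complement components C3 and C4b differed by 4.01 and 4.75, the adhesion receptor Cd44 by 3.96 and the secreted lipocalin Lcn2 by 3.07. Vimentin (Vim), a filament of immature and reactive glia, was at 1243, 1131 and 741 FPKM against 145, 114 and 168. Genes such as C3, Cd14 and Ggta1 are also expressed by other cells, microglia among them.

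All 12 microglia genes were higher in the spheres (median 3.17), and 9 of them passed the filter in both groups. The complement subunit C1qa was at 1248, 948 and 891 FPKM in A-iSCs and at 40.6, 42.3 and 41.6 in P0-NPCs. The fractalkine receptor Cx3cr1 was at 68.8, 57.6 and 57.0 FPKM against 3.55, 5.67 and 3.82, and the adaptor Tyrobp at 584, 472 and 385 against 18.8, 28.3 and 26.2. None of the 3 genes overlapped between the groups, as was the case for most genes. P2ry12, a receptor of resting microglia, was close to the P0 level, at 7.19, 5.48 and 9.23 FPKM against 3.33, 5.44 and 4.49. Its difference of 0.61 (adjusted p = 0.0313 in limma) was no longer called in 4 of 6 fits with 1 sample left out. The summed FPKM of the 12 genes was 3435, 2851 and 2459 in A-iSC replicates 1, 2 and 3 and 146 to 177 in P0-NPCs, and it was 249 to 303 in ASTs and 852 to 905 in P56-NPCs. Lyz2, a lysozyme of macrophages, had the largest positive difference among genes with at least 50 FPKM in a group whose samples did not overlap, at 3672, 2724 and 2475 FPKM in A-iSCs and at 9.13, 20.1 and 12.9 in P0-NPCs. Spp1, Lgals3, Ctss, Cd52, C3ar1 and Wfdc17, all genes that macrophages express, were also among the 15 largest.

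**Figure D4:**
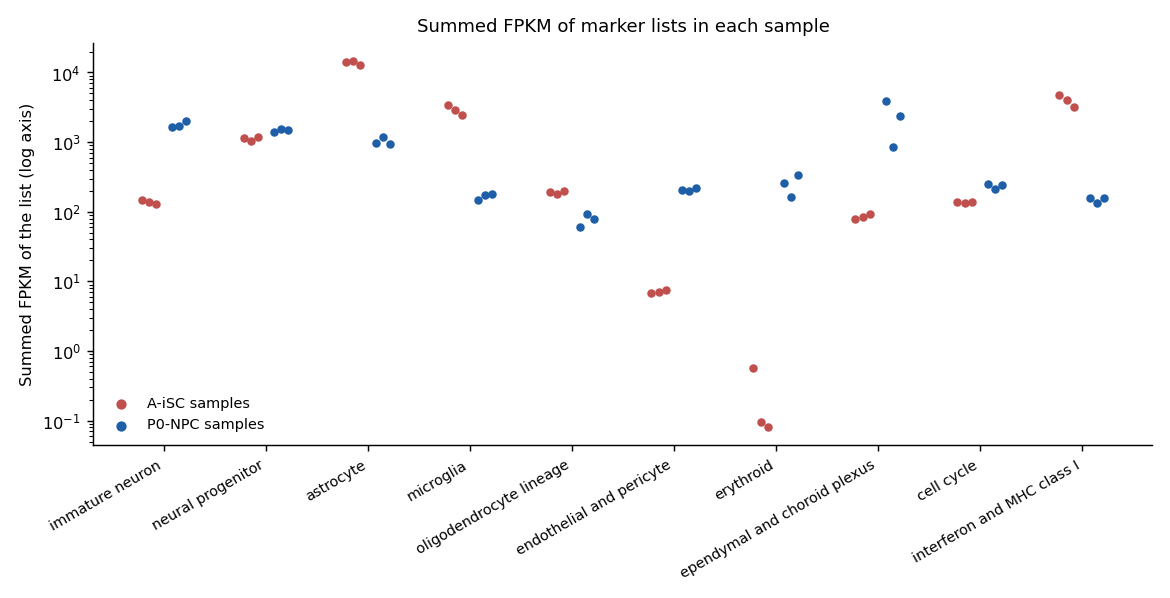
Summed FPKM (log axis) of the genes of 10 lists in each A-iSC sample (red) and P0-NPC sample (blue). The microglia list is at 2459 to 3435 in A-iSCs and 146 to 177 in P0-NPCs, the endothelial and pericyte list at 6.72 to 7.43 and 199 to 216, and the neural progenitor list at 1053 to 1168 and 1397 to 1519.

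Lysosomal genes were higher in 17 of 17 cases, with a median of 2.93, and 15 passed the filter in both groups. The protease cathepsin D (Ctsd) was at 2392, 1839 and 1671 FPKM in A-iSCs and at 85.7, 75.8 and 88.1 in P0-NPCs. Gpnmb, a transmembrane glycoprotein of lysosomes in phagocytic cells at chr6:49036546-49070929, was at 187, 151 and 127 FPKM against 0.376, 0.949 and 0.502. The differences were smallest for the cholesterol carrier Npc2 (1.59), with the membrane protein Lamp1 at 1.79 and the saposin precursor Psap at 1.80, and largest for Gpnmb (6.60), Ctss (5.09) and Cd68 (4.76), with Ctsd at 4.53. The microglia genes were higher in the same samples, and their part in this result was not tested. The summed FPKM of the lysosomal list in ASTs was 2692 to 2713, against 7042 to 8508 in A-iSCs and 849 to 894 in P0-NPCs.

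Interferon-stimulated and MHC class I genes were higher in 21 of 21 cases with the highest median of any list, 3.89. Of these, 13 passed the filter in both groups, and all 13 were higher. The MHC light chain B2m was at 2482, 2136 and 1617 FPKM in A-iSCs and at 82.1, 73.4 and 90.8 in P0-NPCs. Ifit1, an antiviral RNA-binding protein, was at 75.7, 60.8 and 56.6 FPKM against 0.411, 0.155 and 0.273, and the ubiquitin-like Isg15 at 223, 179 and 120 against 3.42, 1.86 and 2.58. The factor Irf7 was at 79.7, 65.0 and 40.3 FPKM against 1.24, 0.528 and 1 (adjusted p = 2.62e-06 in limma). A-iSC replicate 3 was the lowest sphere sample for these 4 genes and was still far above the P0-NPCs. H2-K1 and H2-D1 differed by 4.6 and 4.75, though reads of these near-identical genes can be assigned to either. In ASTs the summed FPKM of the list was 1775 to 2413, between the A-iSCs (3229 to 4687) and the P0-NPCs (132 to 160). The microglia genes moved in the same direction, and their part here was not tested.

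Promoters are shown because members of the list moved together and a known element of such genes could be searched. RefSeq promoters on GRCm38.p6, from 250 bases before to 50 after a start site, were found for 16 of the 21 genes. The core of the interferon-stimulated response element, GAAANNGAA, was searched on both strands. It was in 5 of their 19 promoters (26.3%) and in 8.6% of all 32851 mouse promoters. Each line gives 60 bases, 5′ to 3′ on the strand of the gene, with matches of the core or its reverse complement in capitals.
Ifit1, chr19:34640770-34640829, plus strand: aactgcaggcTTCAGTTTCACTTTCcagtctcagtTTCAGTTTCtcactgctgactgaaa
Ifit3, chr19:34583364-34583423, plus strand: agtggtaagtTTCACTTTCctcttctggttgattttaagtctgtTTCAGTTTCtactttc
Isg15, chr4:156200847-156200906, minus strand: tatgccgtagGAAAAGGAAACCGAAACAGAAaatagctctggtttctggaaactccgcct
Bst2, chr8:71537553-71537612, minus strand: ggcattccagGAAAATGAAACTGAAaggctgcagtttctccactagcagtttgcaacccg
B2m, chr2:122147538-122147597, plus strand: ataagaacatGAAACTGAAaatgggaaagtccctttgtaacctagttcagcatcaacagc
Ifit1 and Isg15 had 3 matches in the window, Ifit3 and Bst2 2, and B2m 1, some of them overlapping, and these 5 genes had differences of 4.63 (B2m) to 6.55 (Ifit3). Genes not among the matches, such as Irf7 (4.99) and H2-D1 (4.75), had differences within that range. A match describes the letters and is not a measured site.

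Metallothionein and antioxidant genes were higher in 11 of 11 cases, all of which passed the filter in both groups (median 2.75). Haem oxygenase 1 (Hmox1) was at 297, 251 and 155 FPKM in A-iSCs and at 11.1, 8.57 and 14.3 in P0-NPCs. Sulfiredoxin (Srxn1), which repairs oxidised peroxiredoxins, was at 51.1, 49.6 and 46.4 FPKM against 3.19, 3.42 and 3.35. The metallothioneins, which bind zinc and copper, varied more, with Mt1 at 1622, 1481 and 671 FPKM against 98.4, 93.8 and 119. Nfe2l2, the factor that drives many antioxidant genes, was itself higher, at 48.6, 43.1 and 73.2 FPKM against 4.04, 3.88 and 5.07. The core of the antioxidant response element, TGACNNNGC on both strands, was in 4 of 12 promoters of this list (33.3%) and in 12.4% of all promoters. The promoter of Mt2 is printed with the match in capitals as the example of the list.
Mt2, chr8:94172529-94172588, plus strand: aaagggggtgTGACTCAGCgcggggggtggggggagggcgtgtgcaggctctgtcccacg
Mt2 was at 92.5, 70.5 and 44.3 FPKM in A-iSCs and at 6.10, 8.76 and 10.9 in P0-NPCs. The metal response element core TGCACNC was in 5 of the 12 promoters (41.7%) and in 12.6% of all. These 12 promoters belong to 9 genes and the 5 with the core to 4, as overlapping promoters of 1 gene shared a site. The core TCACGTGA of the lysosomal CLEAR element was in 1 of 16 promoters of the lysosomal list, that of Ctsd, and in 1.0% of all.

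Glycolysis and hypoxia genes were higher in 16 of 18 cases (median 1.32), 3 of which passed the filter through the A-iSCs alone. Eno1, a glycolytic enzyme, was at 180, 215 and 184 FPKM in A-iSCs and at 59.8, 44.5 and 61.5 in P0-NPCs. The growth factor Vegfa was at 42.9, 73.7 and 41.2 FPKM against 19.2, 15 and 13.7, and the oxygen-sensing hydroxylase Egln3 at 20, 24.2 and 34.6 against 3.73, 4.52 and 4.05. Gapdh is uncertain, because it has many near-identical pseudogenes, and its values were 53.9, 70.8 and 1.99 FPKM in A-iSCs and 1.63, 1.4 and 0.984 in P0-NPCs. Its call was lost in 5 of the 6 fits that left out 1 sample, and its difference ran from 2.46 to 4.76 over them. Cholesterol synthesis genes gave no common direction, with 4 higher, 6 lower and 7 not called of 17 (median -0.07). Among them Msmo1, a sterol oxidase, was higher by 2.12.

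Among 11 genes of the PI3K-Akt, Rap1 and Notch pathways and trophic factors, a part of those the study followed by RT-PCR, 6 were higher in A-iSCs than in P0-NPCs, 3 lower and 2 (Pcna and Hes1) not called. Of the 11, 3 passed the filter through 1 group alone, and 4 of the other 8 were higher and 2 lower. The study chose these genes on its own samples, so their direction is not independent evidence. Beside Vegfa, the inhibitors of bHLH factors Id1 (228, 190 and 130 FPKM against 71.4, 62.8 and 61.9) and Id3 (249, 243 and 180 against 103, 99.0 and 103) were higher. The VEGF receptor Kdr was lower, at 0.516, 0.433 and 0.582 FPKM against 8.55, 5.87 and 7.52. So were the PI3K subunit Pik3r1, by 1.31 on the log2 scale, and Rap1gap, by 0.79. The trophic factor Bdnf was at 1.20 to 1.72 FPKM in A-iSCs and at 0.321 to 0.475 in P0-NPCs. Its mean in ASTs was 7.81 FPKM.

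Most vascular genes and all tested blood genes were lower in the spheres. Of 13 endothelial and pericyte genes 12 were lower (median -2.45) and the VEGF receptor Flt1 was not called. Without A-iSC replicate 3 Flt1 was called lower too (-0.49, adjusted p = 0.0103 in limma). Of the 13, 11 passed the filter through the P0-NPCs alone, which fixed their direction, and 1 of the other 2 was lower. Claudin 5 (Cldn5), of the tight junctions of brain endothelium, was at 0.175, 0 and 0 FPKM in A-iSCs and at 49.6, 53.4 and 49.4 in P0-NPCs. The pericyte gene Rgs5 was at 0.513, 0.592 and 0.993 FPKM against 37.5, 35.4 and 42.8. All 5 tested erythroid genes were lower, and all passed the filter through the P0-NPCs alone. Haemoglobin alpha (Hba-a1) was at 0.306, 0 and 0 FPKM against 159, 102 and 215, although reads of the haemoglobin copies can be exchanged. Of 9 ependymal and choroid plexus genes 6 were lower, and 4 of the 7 that passed the filter in both groups. The choroid plexus gene Ttr, a thyroid hormone carrier, had the largest negative difference of all (-9.94), at 0.460, 1.56 and 0.755 FPKM in A-iSCs and at 3747, 725 and 2265 in P0-NPCs. Folr1, another choroid plexus gene, had the same order of the P0-NPC samples, at 20.4, 5.05 and 12.3 FPKM. P0-NPC replicate 2 was thus lowest for Ttr, Folr1 and Hba-a1. The cilia genes Rsph1, Tmem212 and Ccdc153 of ependymal cells were not called. Foxj1, of the same list, was lower, at 39.9, 40.6 and 52.2 FPKM against 68.3, 57.6 and 54.4 (adjusted p = 0.0335 in limma).

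Matrix genes were lower in 14 of 16 cases (median -1.93), and these included the fibrillar collagens and the basement membrane collagens. Of the 16, 5 passed the filter through the P0-NPCs alone, and 9 of the other 11 were lower (median -1.55). Col3a1, a fibroblast collagen, was at 0.965, 0.951 and 1.04 FPKM in A-iSCs and at 36.6, 35.5 and 32.5 in P0-NPCs, and Col4a1 of basement membranes at 5.40, 6.13 and 6.18 against 78.6, 61.9 and 71.9. The 2 exceptions were fibronectin (Fn1), at 60.1, 58.7 and 80.1 FPKM against 15.5, 18.9 and 16.7, and the matrix glycoprotein Sparc, higher by 0.93. The endothelial and pericyte genes were lower in the same samples, and their part in the collagen values was not tested. Contractile and serum response genes were higher in all 9 tested (median 2.51), of 11 listed, and 2 of the 9 passed the filter through the A-iSCs alone. Smooth muscle actin (Acta2) was at 58.6, 40.9 and 25.5 FPKM against 4, 1.77 and 3.34, and the matricellular Ccn1 at 117, 106 and 53.5 against 23.0, 11.8 and 18.6. Both remained far below the serum-grown ASTs, at 1848 and 932 FPKM.

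Oligodendrocyte lineage genes were higher in 7 of 10 cases (median 0.96), and in 6 of the 8 that passed the filter in both groups. Cnp, an enzyme of the lineage, was at 45.3, 51.4 and 67.5 FPKM in A-iSCs and at 9.42, 11.3 and 10.2 in P0-NPCs, while the myelin protein Mbp stayed below 5 FPKM in all 6 samples. Pdgfra and Mog were lower, and the call of Pdgfra (-0.54) was lost in 4 of the 6 fits that left out 1 sample. Mog lies next to Zfp57 on chromosome 17, which was at 42.5, 47.4 and 41.8 FPKM in P0-NPCs and at 2.82, 2.91 and 1.03 in A-iSCs, and reads that run on from one gene to the other could not be told apart here.

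Of the 985 transcription factors tested, as marked in the deposited table, 313 were higher and 381 lower (median -0.10, against -0.02 over all genes). The higher share was close to the 31.5% of all genes tested and the lower share above their 33.6%, and families differed. All 7 interferon regulatory factors tested were higher, of which Irf2, Irf5, Irf7 and Irf8 passed the filter through the A-iSCs alone. Of 42 bZIP factors 26 were higher and 6 lower (median 0.71), whereas of 21 forkhead factors none was higher and 16 were lower (median -0.80). With at least 1 FPKM in both groups, 24 of 39 bZIP factors were higher and 5 lower, and 11 of 16 forkhead factors were lower. These families were chosen after their values were seen. In the bZIP family Junb was at 134, 107 and 70.9 FPKM in A-iSCs and at 9.29, 5.61 and 7.42 in P0-NPCs, and Atf3, a stress-induced factor, at 35.4, 33.3 and 21.4 against 2.82, 1.63 and 2.29. Cebpb, Cebpd and Cebpa, factors of acute-phase and myeloid genes, differed by 3.14, 2.11 and 2.26. Exceptions were Bach2, at 0.993, 1.32 and 1.34 FPKM against 7.65, 6.86 and 7.91, and Atf2, lower by 0.77 on the log2 scale.

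The forkhead factors that were lower included neuronal, pericyte and cell cycle members. Foxo6, a neuronal member, was at 2.49, 3.44 and 2.54 FPKM in A-iSCs and at 35.1, 31.9 and 44.3 in P0-NPCs. Foxf2, of pericytes, was at 0.126, 0.125 and 0.0474 FPKM against 4.98, 4.61 and 5.42, and Foxm1, of dividing cells, at 1.54, 1.87 and 1.56 against 6.86, 5.07 and 6.28. The widely expressed Foxo1, Foxo3 and Foxo4 were not called, although Foxo3 was called higher with all 4 groups in the fit (0.30, adjusted p = 0.0463 in limma). Among the Sox factors, Sox2, Sox6, Sox8, Sox9, Sox10 and Sox21 were higher, Sox3, Sox4, Sox11, Sox12, Sox13, Sox17 and Sox18 were lower, and Sox1, Sox5 and Sox7 were not called. The calls of Sox6 (0.67) and Sox13 (-0.41) were lost in 2 and 3 of the fits that left out 1 sample. Sox21, which represses progenitor genes, was at 27.9, 33.8 and 39.8 FPKM against 9.23, 8.88 and 9.77, and Sox4, of newborn neurons, at 50.7, 50.9 and 77.8 against 224, 191 and 249. The homeobox factor Nkx6-2 was at 14.9, 15.7 and 11.1 FPKM in A-iSCs, at 0, 0.0360 and 0.0381 in P0-NPCs and at 14.6 (mean of 3) in ASTs. Spi1 and Irf8, factors of macrophages, were higher by 3.21 and 3.26.

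**Figure D5:**
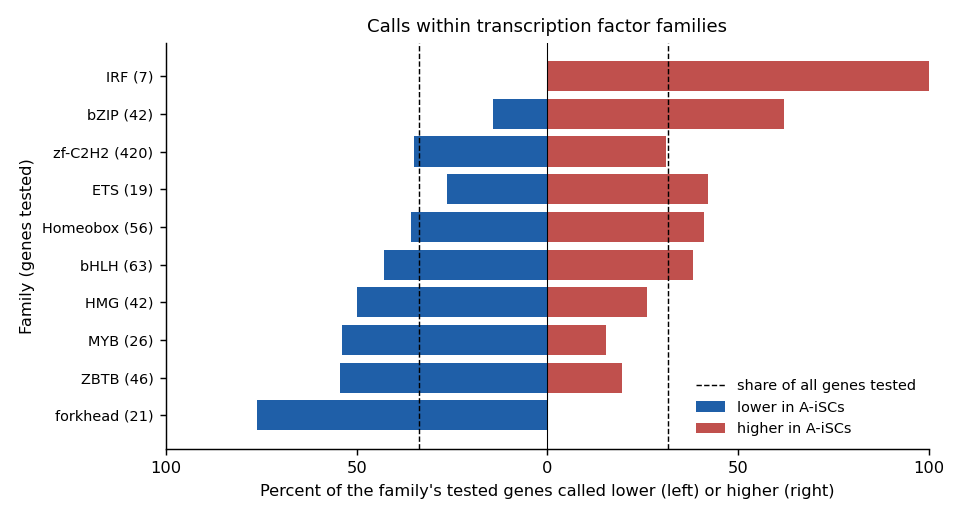
Percent of the tested genes of each transcription factor family that limma called lower (left, blue) or higher (right, red) in A-iSCs, with the number tested in brackets and the shares over all genes tested, 33.6% and 31.5%, as dashed lines. The interferon regulatory factors and the bZIP family lie furthest to the right and the forkhead family furthest to the left.

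Genes at a like level gave a counterpart to these differences. The 95% interval of the difference lay within 0.5 on either side of 0 for 2122 genes (14%) and within 1 for 7627 (50.3%). The most abundant of the first kind, leaving out ribosomal and mitochondrially encoded genes, included the actin regulator Cfl1, the ADP/ATP carrier Slc25a4, the translation factor Eif5a and the GTPase Cdc42. Eif5a was at 150, 152 and 150 FPKM in A-iSCs and at 155, 157 and 170 in P0-NPCs, with an interval of -0.36 to 0.17. Cdc42 was at 154, 150 and 163 FPKM against 128, 140 and 158, with an interval of -0.17 to 0.43.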

How the data were processed

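The deposited table gives FPKM per gene, which the authors computed from paired-end reads of NEBNext Ultra libraries after removal of adapter, poly-N and low-quality reads. The submitters' processing notes name Bowtie 0.12.2 and mm8, whereas the gene positions in the table are those of GRCm38. The counter and the annotation release are not given in the sources used here, nor is strand, so genes that overlap may share reads. Each FPKM times gene length was a whole multiple of 1 step within its sample (tolerance 0.01 fragment), from which the fragments per gene and the depth were recovered. The library size behind the FPKM was 1.102 to 1.218 times the recovered fragments in the 6 samples tested. It was 0.941 to 0.985 times in ASTs and 0.744 to 0.779 times in P56-NPCs. The divisor was thus not the fragment total, which the alternative of scaling by library size alone used.

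Genes with a mean of at least 1 FPKM in either group were tested with limma 3.58.1 in R 4.3.3 (lmFit, eBayes with a trend) on log2(FPKM + 1), with the 6 samples of both groups and no covariate. P-values were adjusted by the Benjamini-Hochberg method over all 15170 genes and called under 0.05. The fit was tested on simulated data. Permuting 3 samples against 3 cannot give a p below 0.1. Groups came from the labels.

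The members and the 25 gene lists were chosen with earlier results of these data known. Named genes were members of these lists, the 15 genes with the largest differences in each direction among non-overlapping genes with at least 50 FPKM in a group, the 10 most abundant genes at a like level and, added after values were seen, transcription factors. Alternatives were other scalings, pseudocounts and filters, all 4 groups in 1 fit, limma-voom on the recovered fragments, stricter calls, a replicate block and each sample left out. Promoters were read from RefSeq on GRCm38.p6, and gene positions are as deposited. Columns of other annotation were not used. Figures were drawn with matplotlib 3.10.9. Some genes of the lists are counted but not reported here by name.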

Additional observations from a re-analysis of the deposited data

How the results depend on the processing

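The counts of 4773 higher and 5103 lower genes became 2142 and 2388 with a log2 fold change beyond 1, and 3509 and 3289 when both groups had to reach 1 FPKM, where fewer genes were tested. With that filter 116 listed genes were higher and 88 lower, against 144 and 150. Leaving out 1 sample gave 4075 to 5636 higher and 4475 to 5870 lower genes, the highest of both without A-iSC replicate 3, and 136 to 147 and 146 to 156 of the listed genes. Of 177 genes named in the text, which leave out Foxj1, 136 kept direction and call under every alternative run. A call was gained by 15 under some alternative, among them 10 without A-iSC replicate 3 (Fabp7, Flt1, Hes1, Hopx, Myc, Notch1, Robo2, Slc1a3, Sox5 and Zbtb20).

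Genes that were not called turned sign in single settings, and the cause was not tested. Scaling by library size alone gave -0.07 for Ncan, -0.03 for Pcna, -0.04 for Slc1a2, -0.04 for Slc25a4 and -0.01 for Nrcam, and upper-quartile scaling gave 0.01 for Foxo4. Over the fits without 1 sample, the differences ran from -0.18 (without P0-NPC replicate 3) to 0.56 (without P0-NPC replicate 2) for Ccdc153, from -0.09 (without A-iSC replicate 1) to 0.22 for Cfl1, from -0.10 to 0.09 (without A-iSC replicate 1, and 0.03 without P0-NPC replicate 1) for Foxo4, and from -0.16 to 0.14 (without A-iSC replicate 3) for Klf4. They ran from -0.07 (without A-iSC or P0-NPC replicate 1, and -0.03 without P0-NPC replicate 3) to 0.11 for Ncan, from -0.25 to 0.01 (without P0-NPC replicate 2) for Rsph1, from -0.34 (without A-iSC replicate 3, and -0.09 without P0-NPC replicate 3) to 0.28 for Slc1a2, from -0.01 (without A-iSC replicate 3) to 0.10 for Slc25a4, and from -0.17 (without A-iSC replicate 3) to 0.21 (without A-iSC replicate 1) for Nrcam. The median of the cholesterol list ran from -0.13 to 0.02 (without A-iSC replicate 2).

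With the replicate number as a replicate block 4527 genes were higher and 4879 lower, and Hes1 and Notch1 were called. Samples of the same number did not deviate together (correlations of -0.05, -0.03 and -0.11). With 3 samples in a group this cannot show that the numbers carry no pairing, and no label states a link. Limma-voom on the recovered fragments gave 4749 and 5121. Scaling by library size alone gave 4413 and 5447, with a median difference of -0.08 over all genes tested. Of the named genes other than Foxj1, 29 overlap another gene with a mean of at least 1 FPKM, such as Sox2 with Sox2ot and Junb with Prdx2.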
